A study of Gallus gallus with 9 samples.

Results

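In chicken granulosa cells, 99 of 12479 mRNAs were all but silent before the preovulatory surge of luteinizing hormone (LH) and were present in every hen at the surge. They were chosen from the deposited values by a fixed rule: a value below 1 on the log2(TPM + 1) scale, which is below 1 TPM, in each of the 6 libraries of the ZT0 and ZT12 stages, and a value of at least 2.5, which is 4.66 TPM, in each of the 3 libraries of the ZT20 stage. TPM is the share of a transcript among all transcripts of a library after correction for its length, scaled to a fixed total. Because ZT20 against either earlier stage was used for the choice, the size of the rise is given below as a description without a test. The order of ZT0 and ZT12 and the neighbouring genes were not used by the rule. The floor in each ZT20 hen limits the spread among these hens for members near the floor, but does not set it.

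RNA was sequenced from the granulosa layer of the F1 follicle, the next to ovulate, in Rohman layers aged 210 days. The hens laid their eggs at a steady hour of the morning, and were killed at 9:00 (ZT0), 21:00 (ZT12) or 5:00 (ZT20), with 3 hens per stage and 1 library per hen. ZT stands for zeitgeber time, the hours of the light cycle. The study took ZT0 and ZT12 as stages before the surge and ZT20 as the stage of high serum LH, so clock hour and surge cannot be told apart in this design.

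The granulosa layer surrounds the yolk-filled oocyte of the hen and is the main source of progesterone at the end of follicle growth. LH acts on these cells through a receptor coupled to G proteins and raises cyclic AMP, and the cells answer with waves of newly made mRNA before the follicle wall opens. Genes that regulate G protein signalling, ion channels and adaptor proteins are among those known to respond to such signals in many cell types.

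In each library, the mRNA values summed to 839819 to 883100 TPM, and no pair of libraries held identical values. TPM keeps no record of read number. The paper gives the raw reads of each library, but the reads behind a single value are unknown. It also lists a higher GC content (the share of G and C bases) in every ZT12 library than in any ZT0 library. At ZT20, the third library was higher in GC content than the first and the second. The part of GC content in the values was not tested. The symbol of a gene could be paired for 1824 of the mRNAs, which leaves most marker lists nearly empty: 3 of 12 granulosa markers, 1 of 9 endothelial, 2 of 10 leukocyte and 1 of 6 oocyte markers were paired, and none of those for theca, erythrocytes or thrombocytes. ZP3, a granulosa product in birds, stood at 84106 to 114848 TPM in all libraries. STAR, the cholesterol carrier that starts steroid synthesis, rose by 3.13 log2 units from ZT12 to ZT20 (limma, SE 0.301, adjusted p = 1.25e-05), while NR5A1, a nuclear receptor that drives steroidogenic genes and the remaining granulosa marker, fell by 2.06 (limma, SE 0.203, adjusted p = 1.48e-05), from 158 to 216 TPM to 31.6 to 52.5 TPM. In bulk RNA of this kind, fewer cells of a type and less RNA per cell cannot be told apart. In stained sections of the F1 follicle, the paper describes the ZT20 granulosa layer as thinner and poorer in cells than at ZT0 and ZT12. The part of this in the values here was not tested.

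Of all mRNAs, 1339 were below 1 TPM in each ZT0 and ZT12 library. At ZT20, 725 of them were still below 1 TPM in every hen, 99 met the floor in every hen, and 515 lay between. The reverse pattern, at or above the floor in all 6 earlier libraries and below 1 TPM in all 3 at ZT20, was met by 50 mRNAs. No mRNA was present by the same limits at ZT0 alone or at ZT12 alone. Among 7528 long noncoding RNAs (lncRNAs), 61 met the limits in TPM, if the lncRNA values are read with a pseudocount of 2, which is inferred from the values.

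**Figure D1:**
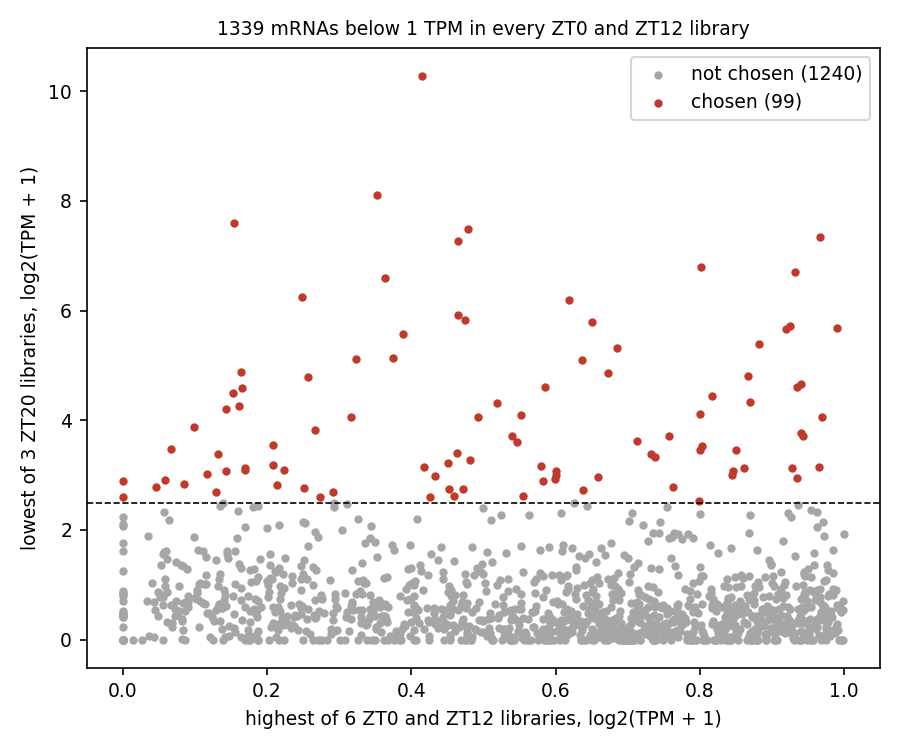
For each of 1339 mRNAs below 1 TPM in every ZT0 and ZT12 library, the highest of those 6 values (x axis) is plotted against the lowest of the 3 ZT20 values (y axis), both as log2(TPM + 1). The 99 chosen mRNAs (red) lie on or above the dashed line at 2.5, and 1 of them, ENSGALG00000040355, stands alone at 10.28.

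The edges of the rule cut through a continuous range of values. The chosen mRNAs nearest to the floor were ENSGALG00000038529, whose lowest ZT20 value was 2.52 on the log2(TPM + 1) scale, and ENSGALG00000005519, at 2.59. Just outside were ENSGALG00000041978, at 2.495, and ASPA, the enzyme that splits N-acetylaspartate, at 2.491. The chosen mRNAs nearest to the ceiling were ENSGALG00000009686, with a highest earlier value of 0.990, and ENSGALG00000040342, at 0.969. ENSGALG00000000604 (1.013) and ENSGALG00000006786 (1.020) were left out by 1 or more of the 6 earlier libraries. Between the lowest ZT20 library and the highest earlier library of the same mRNA, the gap on the log2(TPM + 1) scale was at least 1.72 and had a median of 2.98.

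Together, the 99 mRNAs summed to 24.4, 30.3 and 30.1 TPM in the ZT0 hens, to 21.3, 23.3 and 14.8 TPM in the ZT12 hens, and to 4940, 5005 and 5407 TPM in the ZT20 hens. At ZT20 this sum was 0.573 to 0.640% of all mRNA TPM. The median member stood at 0.169, 0.234 and 0.233 TPM at ZT0, at 0.0975, 0.141 and 0.106 TPM at ZT12, and at 13.8, 14.7 and 15.4 TPM at ZT20. The 3 ZT20 hens were thus close to one another in the sum and in the median. Before the surge most members were low rather than absent: 59 had a value above 0 in all 6 libraries, 40 were listed at 0 in at least 1, and 2, RGS1 and ENSGALG00000008262, were listed at 0 in all 6. An exact 0 says only that the deposited value is 0.

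**Figure D2:**
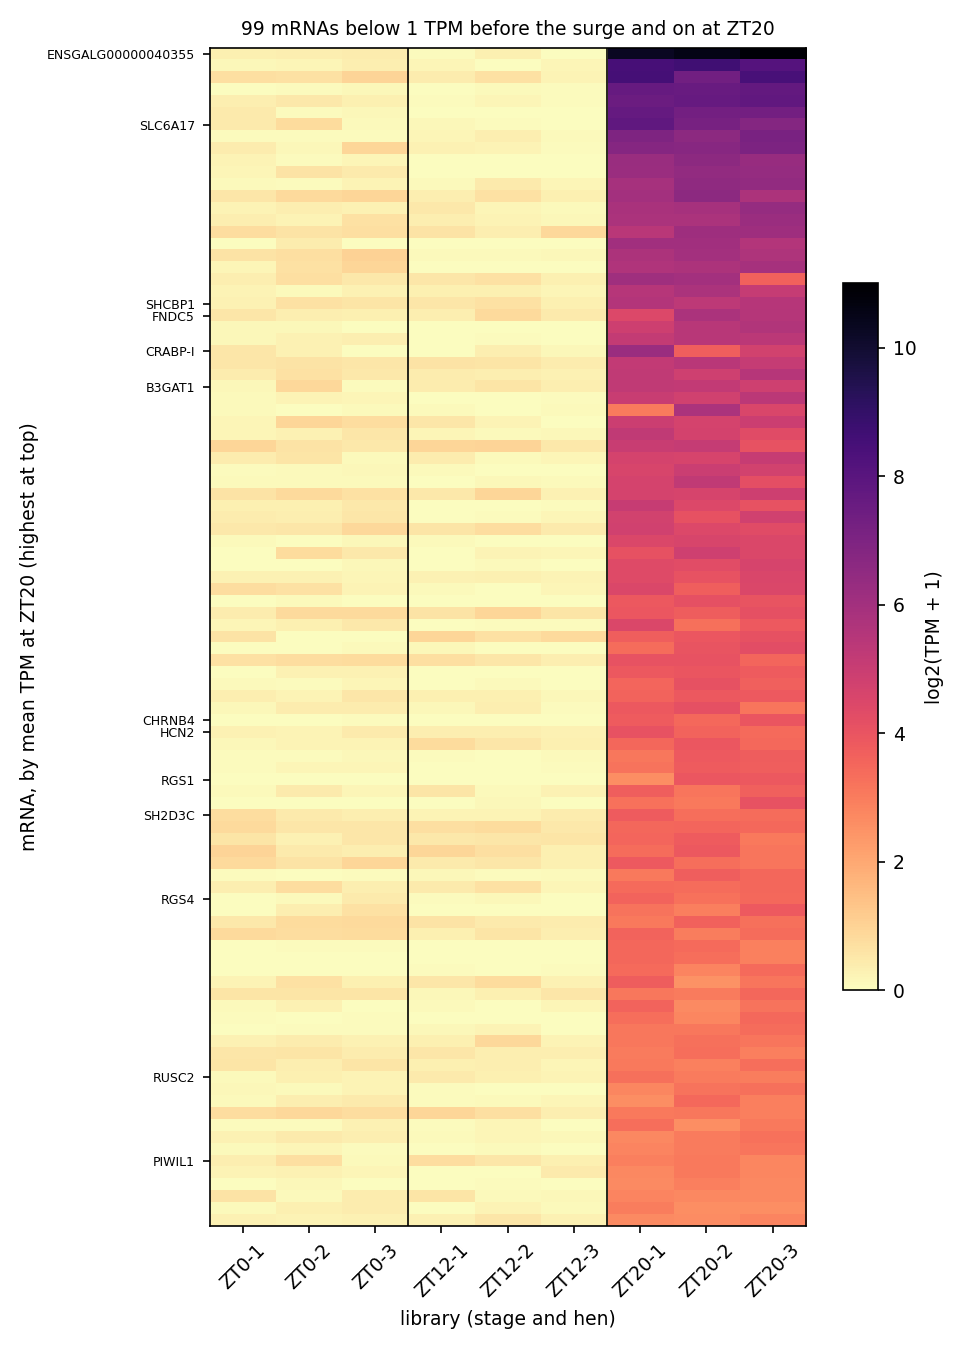
Each row is 1 of the 99 mRNAs, ordered by mean TPM at ZT20 with the highest at the top, and each column is 1 library; colour is log2(TPM + 1). All rows are pale in the 6 columns at ZT0 and ZT12 and darker in the 3 at ZT20, most at the top and least towards the bottom. Unequal cells within a row at ZT20 mark members that are uneven among hens, such as ENSGALG00000006471 (3.03, 5.77 and 4.53).

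Relative to ZT12, the median rise of the members was 3.82 on the log2(TPM + 1) scale (range 2.35 to 10.41), and relative to ZT0 it was 3.71 (2.25 to 10.19). Both comparisons use the same ZT20 hens. Over all 12472 tested mRNAs the medians were 0.08 and -0.19. All 99 members were called in both (log2 fold change beyond 1 in either direction, adjusted p under 0.05), where 16.0% (ZT20 against ZT12) and 11.6% (ZT20 against ZT0) of all mRNAs were called higher; the rule fixed this outcome. With 1 added to each TPM, a log2 difference understates the change of mRNAs with values this low.

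Levels at ZT20 were unequal among the members. The mean over the 3 ZT20 hens ranged from 5.54 to 1533.05 TPM with a median of 14.2 TPM and quartiles of 9.15 and 37.8 TPM. It was at least 100 TPM for 9 members, 20 to 100 TPM for 35 and below 20 TPM for 55.

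The highest was ENSGALG00000040355, for which no symbol was paired. Its 6 earlier libraries held 0.256, 0.297 and 0.333 TPM (ZT0) and 0.0597, 0.253 and 0.0269 TPM (ZT12), and its ZT20 libraries 1242, 1475 and 1882 TPM. At ZT20 it ranked 52 among 12479 mRNAs by its mean, and it alone made up 25.1 to 34.8% of the members' sum. Without it, the sum of the other members at ZT20 was 3698, 3530 and 3524 TPM.

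The members that came next were also known by identifier only. ENSGALG00000030502 stood at 361, 407 and 275 TPM at ZT20 and at no more than 0.277 TPM before. ENSGALG00000038411 stood at 368, 160 and 349 TPM, with up to 0.955 TPM before, so that the second ZT20 hen had less than the other 2 hens. ENSGALG00000008949, at 198, 192 and 207 TPM, varied little between hens, and was listed at 0 in 1 hen of each earlier stage. ENSGALG00000016602 held 178, 196 and 217 TPM at ZT20. ENSGALG00000019061, at 204, 153 and 155 TPM, was listed at 0 in all 3 ZT12 hens and at 0.381, 0.0410 and 0.123 TPM at ZT0. In all 6 of these members the lowest ZT20 hen was far above the highest earlier one.

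A symbol was paired for 12 of the 99 members, all of them with a position in the Ensembl Gallus_gallus version 6.0 annotation of the study, and ENSGALG00000004428 had a position without a symbol. The other 86 have neither here. The 13 members with a position have identifiers up to ENSGALG00000005036, and those of the other 86 start at ENSGALG00000005519. The annotation as used here thus reached only members of low identifier number. A missing symbol therefore does not mean that a gene has no known name. The 12 are grouped below by what their products are known to do, mostly from mammals, and the grouping is background and not a result.

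**Figure D3:**
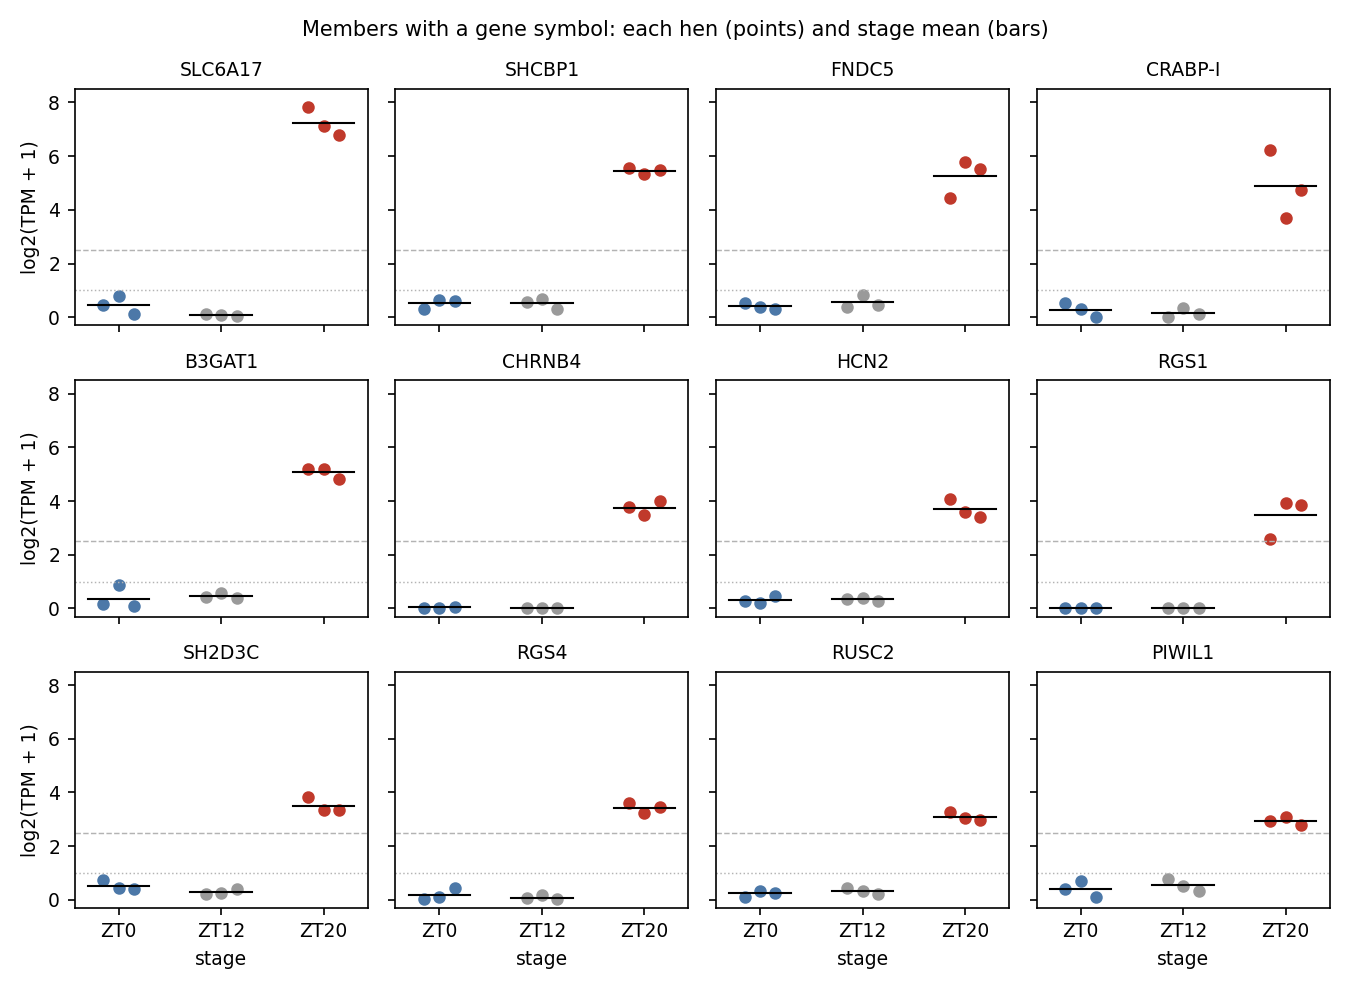
Log2(TPM + 1) of the 12 members with a symbol in each hen (points) at ZT0, ZT12 and ZT20, with the mean of the 3 hens of a stage as a bar; dotted and dashed lines mark the limits of the rule at 1 and 2.5. All earlier points lie under 1, and the ZT20 points of CRABP-I, FNDC5, RGS1 and SLC6A17 are spread over more than 1 log2 unit.

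RGS1 and RGS4 speed up the hydrolysis of GTP by G protein alpha subunits and so shorten signals from G protein-coupled receptors. RGS1 (ENSGALG00000002549, chromosome 8, 3620501 to 3624059) was listed at 0 in all 6 earlier libraries and at 5.09, 14.1 and 13.6 TPM at ZT20. The first ZT20 hen thus had less than the other 2 hens, and no fold is given against 0. RGS4 (ENSGALG00000002564, chromosome 8, 3687052 to 3692405) had 0.0267, 0.0708 and 0.367 TPM at ZT0, 0.0425, 0.118 and 0.0191 TPM at ZT12 and 11.1, 8.35 and 10.1 TPM at ZT20. Its ZT20 hens were close to one another, and the first of them, lowest for RGS1, was the highest for RGS4. The rise of RGS4 from ZT12 was 3.35 log2 units (SE 0.162). The remaining RGS gene paired here, RGS14, was not a member: it held 1.45 to 1.86 TPM at ZT0 and 0.0996 to 0.232 TPM at ZT20, and its log2 difference between ZT20 and ZT12 was -0.78. The paper names RGS16 and RGS2 among genes high at ZT20. Neither could be paired here, so whether they are members is not known.

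RGS1 is known from leukocytes, so the leukocyte markers stand beside it. Of 10 markers 2 were paired: PTPRC, the common leukocyte antigen, held 0.184 to 0.639 TPM before and 0.612, 0.662 and 0.753 TPM at ZT20, and CD74, the invariant chain, held 32.6 to 136 TPM before and 17.9 to 31.2 TPM at ZT20. From ZT12 to ZT20, PTPRC rose by 0.37 log2 units (limma adjusted p = 0.0412), under the fold threshold, and CD74 fell by 1.24 (limma adjusted p = 0.0366). The 2 together, mostly CD74, summed to 33.1 to 55.4 TPM at ZT0, 34.5 to 137 TPM at ZT12 and 18.6 to 31.8 TPM at ZT20. Their part in the values of RGS1 was not tested.

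In a list of 17 genes of signal feedback, 3 could be paired, and RGS1 and RGS4 were 2 of them. The third was RRAD, a small GTPase that restrains calcium channels, which held 0.0395 to 0.137 TPM at ZT12 and 0.376 to 0.572 TPM at ZT20 (log2 difference 0.42, limma adjusted p = 0.0076) and did not pass the fold threshold. Of 13 genes of the EGF network, only HBEGF, an EGF-like ligand, was paired. It was low like the members before the surge (0.0420 to 0.227 TPM) and rose by 1.15 log2 units (limma, SE 0.298, adjusted p = 0.0084), but at 3.57, 1.23 and 0.662 TPM it stayed under the floor; without the first ZT20 hen its log2 difference was 0.74, under the fold threshold. Of 14 prostaglandin genes 2 were paired, and PTGS1, a cyclooxygenase, rose by 1.55 log2 units to 3.31 to 3.87 TPM (limma, SE 0.164, adjusted p = 2.48e-05), also below the floor. The other, PLA2G4A, a phospholipase that releases arachidonic acid, was at 25.7 to 39.1 TPM at ZT12 and 17.4 to 25.1 TPM at ZT20, a log2 difference of -0.61 (limma adjusted p = 0.019) that did not pass the fold threshold. No gene of the lists for transcription factors induced by cyclic AMP (22 genes) or for cytokines (12 genes) could be paired, so whether any is among the 86 unnamed members is not known.

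Channels and transporters known from excitable cells were the next group. CHRNB4 (ENSGALG00000003005, chromosome 10, 3543223 to 3555508) is a beta subunit of nicotinic acetylcholine receptors, cation channels opened by acetylcholine. It held 0.0244, 0.0237 and 0.0476 TPM at ZT0, 0.0200 TPM and 2 values of 0 at ZT12, and 12.9, 10.1 and 14.95 TPM at ZT20, a difference of 3.74 log2 units from ZT12 (SE 0.155). It was among the lowest of the named members before the surge, and its 3 ZT20 hens differed by a factor of up to 1.48.

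Of the nicotinic receptor subunits, 3 others were paired, none of them a member. CHRNA5, an alpha subunit that joins receptors containing CHRNB4, held 1.09 to 1.90 TPM at ZT0, 0.609 to 1.52 TPM at ZT12 and 9.50, 11.6 and 11.04 TPM at ZT20, and rose from ZT12 by 2.45 log2 units (limma, SE 0.217, adjusted p = 6.98e-06). CHRNA7, which forms channels on its own, was the most abundant before the surge, at 177 to 221 TPM at ZT12, and fell by 1.94 log2 units to 34.6 to 64.2 TPM at ZT20 (limma, adjusted p = 7.32e-05). CHRNB2 held 1.30 to 3.11 TPM at ZT12 and 1.49 to 1.61 TPM at ZT20 (log2 difference -0.31). The subunits therefore moved in different directions. These families were put together after the values had been seen.

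HCN2 (ENSGALG00000001342, chromosome 28, 2711394 to 2723081) encodes a cation channel that opens on hyperpolarization and binds cyclic AMP directly. It held 0.199, 0.161 and 0.379 TPM at ZT0, 0.289, 0.301 and 0.229 TPM at ZT12 and 15.9, 11.2 and 9.59 TPM at ZT20, 3.35 log2 units above ZT12 (SE 0.184). RefSeq lists another chicken locus with HCN2 as a synonym, so the naming of this gene is uncertain.

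SLC6A17 (ENSGALG00000000394, chromosome 26, 1342526 to 1349149) encodes a transporter that loads neutral amino acids into synaptic vesicles. It was the highest member with a symbol. Its values were 0.354, 0.743 and 0.0790 TPM at ZT0, 0.0989, 0.0528 and 0.0254 TPM at ZT12 and 224, 140 and 111 TPM at ZT20. It ranked 764 among all mRNAs at ZT20 and stood 7.17 log2 units above ZT12 (SE 0.265). The first ZT20 hen had 2.03 times the value of the third. SLC6A4, the serotonin transporter of the same family, followed another course, from 6.75, 12.7 and 44.2 TPM at ZT0 through 0.424 to 0.796 TPM at ZT12 to 3.22, 5.71 and 4.27 TPM at ZT20. It rose from ZT12 by 1.73 log2 units (limma, adjusted p = 0.0162), a call that was lost without the second ZT20 hen (limma adjusted p = 0.0582).

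Adaptor proteins made up the next group. SHCBP1 (ENSGALG00000004444, chromosome 11, 7987726 to 8002145) binds the SHC1 adaptor and takes part in cytokinesis. It held 0.223, 0.576 and 0.505 TPM at ZT0, 0.466, 0.608 and 0.248 TPM at ZT12 and 46.0, 38.9 and 43.8 TPM at ZT20, 4.93 log2 units above ZT12 (SE 0.172). The ZT20 hens differed by a factor of no more than 1.18.

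SH2D3C (ENSGALG00000005036, chromosome 17, 5445350 to 5461686), an SH2 adaptor that joins Cas proteins in cell adhesion and movement, held 0.667, 0.362 and 0.306 TPM at ZT0, 0.172, 0.189 and 0.308 TPM at ZT12 and 13.1, 9.11 and 9.27 TPM at ZT20. This was 3.22 log2 units above ZT12 (SE 0.175), and the first ZT20 hen was the highest. RUSC2 (ENSGALG00000002371, chromosome Z, 8966840 to 8999279), an adaptor of vesicle traffic with RUN and SH3 domains, held 0.0864, 0.262 and 0.195 TPM at ZT0, 0.350, 0.267 and 0.171 TPM at ZT12 and 8.68, 7.22 and 6.86 TPM at ZT20. It stood 2.76 log2 units above ZT12 (SE 0.143), among the smaller rises, and its hens were alike.

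FNDC5 (ENSGALG00000003567, chromosome 23, 5294114 to 5304982) is a membrane protein with a fibronectin type III domain from which irisin is released. It held 0.461, 0.306 and 0.233 TPM at ZT0, 0.300, 0.762 and 0.386 TPM at ZT12 and 20.6, 54.2 and 44.99 TPM at ZT20, 4.69 log2 units above ZT12 (SE 0.309). The first ZT20 hen was the lowest by a factor of 2.63. B3GAT1 (ENSGALG00000001611, chromosome 24, 2590102 to 2619976) is the glucuronyltransferase that makes the HNK-1 carbohydrate of cell surface proteins. It held 0.113, 0.823 and 0.0550 TPM at ZT0, 0.329, 0.480 and 0.298 TPM at ZT12 and 36.0, 35.3 and 27.1 TPM at ZT20, 4.62 log2 units above ZT12 (SE 0.225). Here the ZT20 hens were close, and the ZT0 hens were spread more widely than those of ZT12.

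CRABP-I (ENSGALG00000003193, chromosome 10, 3636154 to 3648972), the cellular retinoic acid-binding protein, carries retinoic acid inside the cell. It held 0.454 and 0.220 TPM and a 0 at ZT0, a 0, 0.272 and 0.0948 TPM at ZT12, and 73.8, 12.05 and 25.6 TPM at ZT20, so that the ZT20 hens differed by a factor of 6.12. Its difference from ZT12 was 4.73 log2 units with an SE of 0.495, the widest error among the members with a symbol. PIWIL1 (ENSGALG00000002645, chromosome 15, 3348420 to 3365105), a Piwi protein that binds piRNAs in the germ line, had the lowest ZT20 level of the 12. It held 0.304, 0.642 and 0.0744 TPM at ZT0, 0.696, 0.431 and 0.263 TPM at ZT12 and 6.72, 7.41 and 5.86 TPM at ZT20, 2.39 log2 units above ZT12 (SE 0.190).

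The oocyte lies against the granulosa layer, and of its 6 markers only ZP2, an egg coat protein, was paired. ZP2 held 0 to 0.159 TPM before the surge and 0.0374, 0.0558 and 0.0703 TPM at ZT20, near 0 at each stage. CLDN5, the only paired marker of endothelium, fell from 14.2 to 19.3 TPM at ZT12 to 4.16 to 5.15 TPM at ZT20. The part of other cell types in the members' values was otherwise not tested, for want of paired markers.

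Whether the members already differed between the 2 stages before the surge was tested with limma over all mRNAs, since the rule bounds both stages alike. The fit took 1 spread per mRNA over the 3 stages, so the spread of the ZT20 hens entered the error of this test. For ENSGALG00000006471 the SE was 0.519, although its earlier values reached no more than 0.117 on the log2(TPM + 1) scale. Only ENSGALG00000009686 was called. It held 0.530, 0.654 and 0.987 TPM at ZT0, 0.0677, 0.0635 and 0.117 TPM at ZT12 and 53.0, 62.3 and 50.5 TPM at ZT20. Each ZT12 hen was below each ZT0 hen, by 0.66 log2 units (SE 0.163, limma adjusted p = 0.0289). The call was lost after median ratio scaling (adjusted p = 0.063), after quantile normalization (0.0835), and without any 1 of ZT0 replicates 2 and 3 and the 3 ZT12 replicates (0.0602 to 0.0979), over a range of 0.00458 to 0.0979 across all alternatives.

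That single call, 1 of 99 members lower and 0 higher, stands beside 15.6% of all tested mRNAs called lower at ZT12 and 1.17% called higher. Both sides depended on the processing: 11 members were called with a pseudocount of 0.1 and 0 after median ratio scaling, where 211 of all mRNAs were called lower and 204 higher, against 1943 and 146 as deposited. With only the ZT0 and ZT12 libraries fitted, which leaves out the ZT20 spread, more than 1 member was called. Of all mRNAs, 1813 were then called lower and 131 higher. Among the 1332 tested mRNAs below 1 TPM in every ZT0 and ZT12 library, members included, 2.18% were called lower and 0.526% higher. The rule allows no member a log2 difference above 1 between these stages, a bound that all mRNAs together do not have. Shares of members and of all mRNAs are therefore not like for like. For the unadjusted p, the share among the low mRNAs was not taken. An unadjusted p under 0.05 was reached by 4 members, beside 36.5% of all mRNAs. Besides the called mRNA these were ENSGALG00000039837 and ENSGALG00000029195, both lower at ZT12 (log2 differences of -0.40 and -0.58), and ENSGALG00000051789, which was higher by 0.62 and was listed at 0 in 2 of the 3 ZT0 hens. Of 200 simulated low mRNAs lowered by 0.5 log2 units, 0 were recovered. No other of the 12472 simulated mRNAs was changed, which makes the adjusted limit stricter than in these data. The simulation therefore cannot say how many differences of this size the test would find here.

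In direction, 71 members were lower and 26 higher at ZT12 than at ZT0 by their means. The share lower, 71.7%, compares with 80.1% of all mRNAs and 69.0% of the low ones, and the median difference was -0.08 for the members, -0.28 for all mRNAs and -0.08 for the low ones. After median ratio scaling, which brought the median of all mRNAs to -0.03, 60 members were lower, with a median of -0.03. After quantile normalization 52 were lower, with a median of -0.01. The gap between the medians of the members and of all mRNAs depended on the pseudocount. With 0.5 they were -0.15 and -0.31, and with 0.1 they were -0.38 and -0.35, in reversed order. All 3 ZT12 hens were below all 3 ZT0 hens for 23 members (23.2%, against 41.6% of all mRNAs and 18.7% of the low ones), and above them for 4 (4.04%, against 3.60% and 3.60%). The members thus lay near the low mRNAs as a whole, members included, in these shares as deposited.

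**Figure D4:**
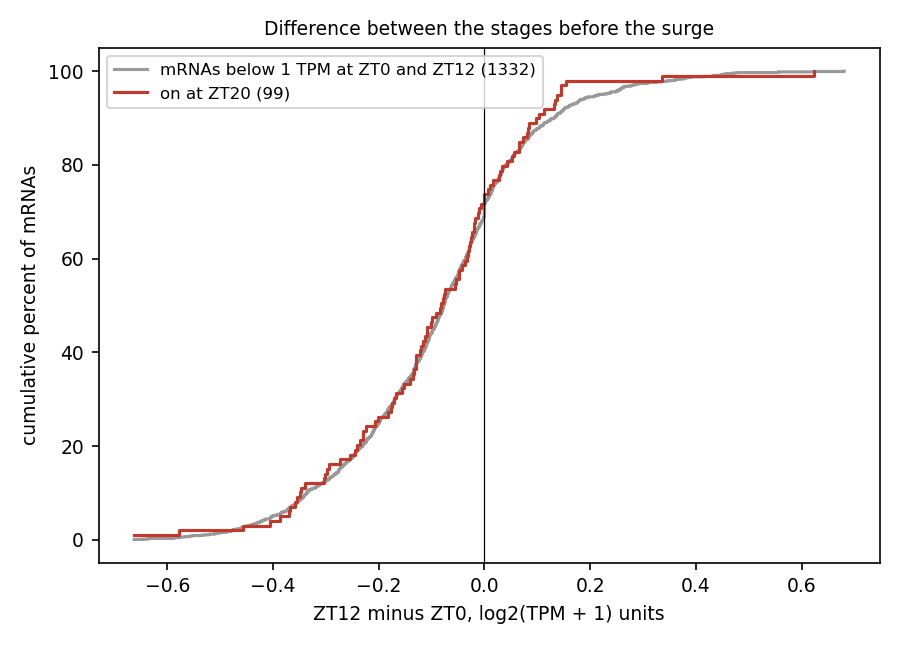
Cumulative percent of mRNAs (y axis) by the difference between ZT12 and ZT0 in log2(TPM + 1) units (x axis), for the 99 members (red) and for all 1332 tested mRNAs below 1 TPM at both stages, members included (grey). The curves run close together and cross 0 at about the same height; 71.7% of the members and 69.0% of the low mRNAs lie below 0.

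The rule set a floor in each ZT20 hen but not their order. The floor shuts out mRNAs with a low hen, and so limits the spread of members near it. On the log2(TPM + 1) scale the range over the 3 ZT20 hens had a median of 0.53 among the members, against 0.39 among 7650 other mRNAs above the same floor. The coefficient of variation of TPM had a median of 20.7% among the members and of 14.7% among those others. It was 14.8% among 6669 other mRNAs within the 5th to 95th percentile of the members' ZT20 levels. That band holds most of the 7650 and does not match their levels to those of the members. The median was 14.9% among 474 mRNAs at 1 TPM or more in all earlier libraries that were called higher at ZT20. That call needed a rise above 2 log2 units from ZT12 and a limma adjusted p under 0.05. A limit on the adjusted p favours mRNAs with little spread among hens. The members were thus more uneven from hen to hen at ZT20 by this description, for which no test was made. The part of expression level in this was not tested.

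The spread was not shared out evenly among the members. It exceeded 1 log2 unit for 11 of them and was below 0.5 for 47. The widest were ENSGALG00000006471, with 7.16, 53.7 and 22.2 TPM, and CRABP-I. The narrowest were ENSGALG00000026263, with 21.6, 22.5 and 21.7 TPM, and ENSGALG00000019489, with 6.04, 5.63 and 5.60 TPM. In both of the widest the first ZT20 hen was at 1 end of the range, as the highest for CRABP-I and the lowest for ENSGALG00000006471. Among the 11 members that ranged over more than 1 log2 unit, the first hen was highest in 6 and lowest in 3, the second highest in 5 and lowest in 4, and the third highest in 0 and lowest in 4.

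By hen, 28 members were highest in the first ZT20 library, 38 in the second and 33 in the third, and 34, 35 and 30 were lowest there. After median ratio scaling the members were highest in 27, 32 and 40 cases, so the hen with the most maxima changed from the second to the third. As deposited, the shares highest among the other mRNAs above the floor were 27.5, 33.6 and 39.0%. Over the 99 members, Pearson's r between ZT20 hens was 0.921 to 0.940 on the log2(TPM + 1) scale, which is across genes of the same libraries and is given as a description. With any 1 of the 9 libraries left out, the rule, then less strict by construction, found 100 to 112 mRNAs.

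Positions on the genome were not used by the rule either, and 13 of the members have one, on 10 chromosomes. Within 100 kb, 3 pairs of members were neighbours: ENSGALG00000004428 (chromosome 11, 7973018 to 7976373) and SHCBP1, 11353 bp apart, RGS1 and RGS4, 62993 bp apart, and CHRNB4 and CRABP-I, 80646 bp apart. Thus 6 of 13 positioned members (46.2%) had another member within this distance, against 2.57% of 1984 positioned mRNAs that are not members. Only 1998 of the 12479 mRNAs have a position here, so these counts cover a small part of the genome, and no test was made. The positioned members are all of low identifier number and are no even sample of the members. The part of this in the shares was not tested.

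ENSGALG00000004428 held 0.315, 0.5002 and 0.0641 TPM at ZT0, 0.322, 0.0691 and 0.135 TPM at ZT12 and 24.4, 23.4 and 32.2 TPM at ZT20. It overlaps VPS35, a subunit of the retromer that recycles membrane proteins, over 3314 bp, which is nearly all of its own span. VPS35 was abundant before the surge, at 53.1 to 65.0 TPM at ZT12, and rose by 1.75 log2 units to 194 to 221 TPM (limma, SE 0.120, adjusted p = 1.14e-06). Whether reads of the 2 overlapping genes were told apart was not tested, which also bears on the pair with SHCBP1.

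Of 51 mRNAs within 100 kb of a positioned member and not members themselves, 13 rose (25.5%) and 4 fell (7.84%) from ZT12 to ZT20 by the same call (log2 fold change beyond 1, adjusted p under 0.05). Among all 1984 positioned mRNAs that are not members, 15.5% rose and 10.3% fell. The median log2 difference was 0.33 for the neighbours and 0.08 for all tested mRNAs, with or without a position. This is another background than that of the shares. From ZT0 to ZT20, some of the neighbours that rose from ZT12 fell short of the fold threshold. They were PSMA4 (0.999 log2 units), YARS (0.87), SLC27A4 (0.86), MYLK3 (0.45) and DNM1 (0.17). Among those that fell, LAMTOR5 (-0.93) also fell short. The other called neighbours passed the same call against ZT0, in the same direction.

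On chromosome 10, the mRNAs with a position between CHRNB4 and CRABP-I also rose from ZT12 to ZT20. They were CHRNA5, described above, PSMA4, a subunit of the proteasome, which rose from 142 to 145 TPM at ZT12 to 305 to 366 TPM (1.18 log2 units, limma adjusted p = 1.10e-05), and HYKK, the hydroxylysine kinase, which rose from 1.36 to 2.28 TPM to 8.29 to 12.99 TPM (1.93 log2 units, limma adjusted p = 4.05e-05). Beyond CRABP-I, WDR61, a subunit of the PAF complex of transcription, held 55.6 to 62.9 TPM at ZT12 and 50.5 to 56.2 TPM at ZT20, and its difference of -0.16 was not called (limma adjusted p = 0.339). PSMA4 fell short of the fold threshold after quantile normalization, at 0.94 log2 units.

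Next to the pair on chromosome 11, ORC6, a subunit of the origin recognition complex, rose from 9.54 to 11.3 TPM to 40.2 to 71.9 TPM (2.31 log2 units, limma adjusted p = 1.62e-05). MYLK3, a myosin light chain kinase, rose from 0.919 to 1.99 TPM to 5.68 to 6.604 TPM (1.497 log2 units, limma adjusted p = 0.00028). All 3 of the genes paired there that are not members, VPS35 included, thus rose from ZT12, as did SHCBP1 and ENSGALG00000004428. Between ZT0 (3.19 to 5.59 TPM) and ZT12, the log2 difference of MYLK3 was -1.05 (limma adjusted p = 0.0201). Its difference between ZT20 and ZT0, 0.45 log2 units, was not called (limma adjusted p = 0.115).

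Near RGS4, ENSGALG00000002581 rose by 1.37 log2 units to 7.38 to 18.3 TPM. Beside B3GAT1, ENSGALG00000001604, 2285 bp away, rose by 1.85 to 40.0 to 94.3 TPM, and JAM3, a junctional adhesion molecule, by 2.15 to 80.3 to 91.8 TPM. CERCAM, related to collagen galactosyltransferases and 10725 bp from SH2D3C, rose by 2.27 to 6.02 to 10.6 TPM. Each of these was called (limma adjusted p of 9.29e-07 to 0.00321), and so were SLC27A4, a fatty acid transport protein (1.25), and DNM1, a dynamin (1.10), near SH2D3C. The call of DNM1 rested on single libraries, at 0.95 without ZT12 replicate 1 and 0.98 without ZT20 replicate 2, both short of the fold threshold.

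The surroundings of FNDC5 held both directions. YARS, the tyrosyl-tRNA synthetase, 9840 bp away, rose by 1.28 log2 units. SYNC, an intermediate filament protein, fell by 3.08, from 35.0 to 53.9 TPM at ZT12 to 2.63 to 5.60 TPM at ZT20 (limma adjusted p = 2.75e-06). MACF1, which links actin with microtubules, fell by 2.18, and KIAA1522 fell by 1.33. The lncRNA G9266, 23311 bp from FNDC5, held 95.5 to 130 TPM at ZT0 and ZT12 and 1.86 to 4.48 TPM at ZT20, opposite in course to FNDC5 itself, a difference given without a test. LAMTOR5, a subunit of Ragulator near SLC6A17, was the remaining neighbour called lower (-1.04), at -0.92 without ZT12 replicate 3 and -0.88 without ZT20 replicate 3, both short of the fold threshold.

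**Figure D5:**
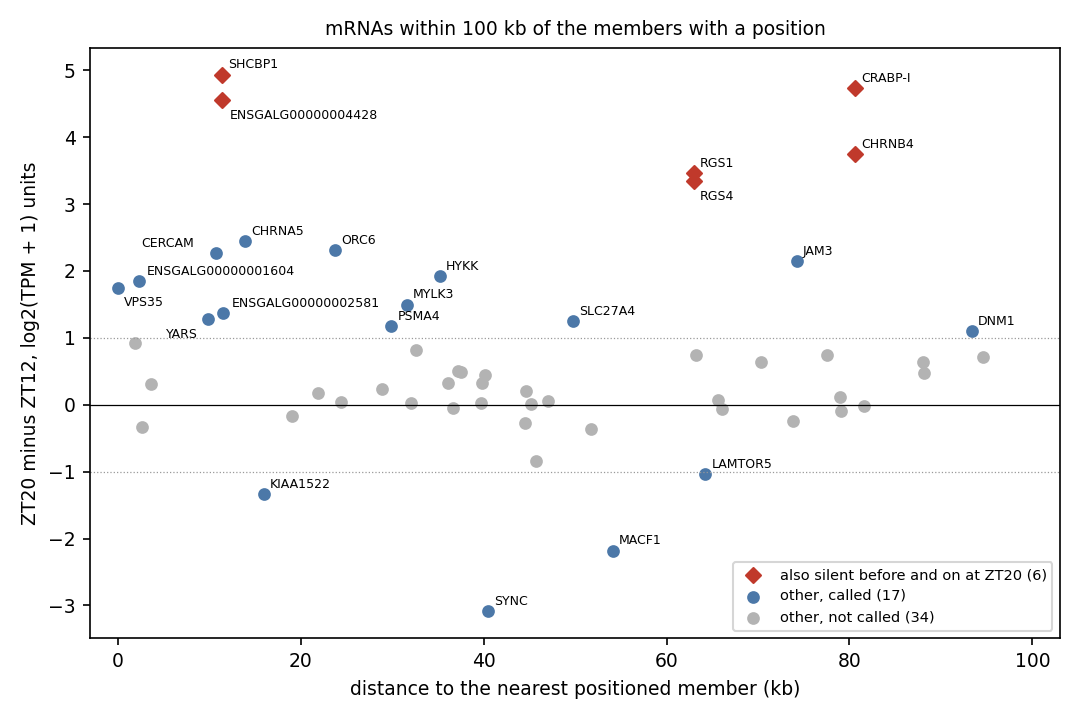
Difference between ZT20 and ZT12 in log2(TPM + 1) units (y axis) of the mRNAs within 100 kb of a positioned member, against the distance to the nearest such member in kb (x axis; 0 means overlap). Red diamonds are the 6 members with another member nearby, blue points other mRNAs called (beyond the dotted lines at 1 and -1, adjusted p under 0.05), and grey points those not called; 13 blue points lie above 0 and 4 below.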

How the data were processed

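Granulosa RNA of 9 hens, 3 each at ZT0, ZT12 and ZT20, was analysed. Per the submitters' processing notes STAR 2.6.0c and Cufflinks 2.2.1 were used; the paper adds TACO for merging and Kallisto for TPM. The authors deposited log2 values, read as log2(TPM + 1) for mRNAs; for lncRNAs log2(TPM + 2) was inferred from their values. DESeq2, the test used in the study, takes counts and could not be applied to these values. The paper lists raw reads per library, but reads per mRNA are not known here, and only counts of genes and TPM are given. All columns were mapped to a library.

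mRNAs above 0.1 TPM in at least 1 library were fitted with limma 3.58.1 (R 4.3.3) on log2(TPM + 1), with 3 stage means over all 9 libraries, a mean-variance trend and Benjamini-Hochberg adjustment over 12472 mRNAs. ZT20 calls need a log2 fold change beyond 1 in either direction with an adjusted p under 0.05; ZT12 against ZT0 has no fold threshold, because the rule allows no difference above 1. P-values rest on the spread between hens within the stages, taken as 1 spread per mRNA for the 3 stages. The ZT20 hens therefore also enter the test of ZT12 against ZT0. On simulated data, changes were made in mRNAs with a mean above 2 on the log2(TPM + 1) scale. Of 200 changes of 2 log2 units for ZT20 against ZT12, 193 were recovered, and of 200 changes of -2 for ZT12 against ZT0, 191. The rule allows no member a change of that size between ZT0 and ZT12, so the latter recovery does not cover the members. Tables were handled with Python 3.11.15 and pandas 2.3.3.

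The members, gene lists and tests were chosen with earlier results of these data known. Named were members with a symbol, the 6 highest at ZT20, the 2 on each side of each limit, those called between ZT12 and ZT0, and the 2 widest and 2 narrowest over the ZT20 hens; neighbours, family members and the other members with an unadjusted p under 0.05 were named after their values were seen. The 12 member symbols were all found in the RefSeq table, which holds none of the mRNA identifiers of the file, and symbols and positions come from the study's annotation table. The lists for steroidogenesis (4 of 17 genes paired: STAR rose, POR, NR5A1 and NR5A2 fell), proteases and matrix (3 of 23: 1 rose, 1 fell) and the clock (1 of 11, not called) hold no member. The alternatives were other limits of the rule, other pseudocounts, filters and scalings, a replicate block and each library left out.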

Additional observations from a re-analysis of the deposited data

How the results depend on the processing

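The number of mRNAs meeting the rule was 57 with a ceiling of 0.5 TPM, 160 with a ceiling of 2 TPM and 170 when applied to stage means, and 100 to 112 with each library left out in turn; a floor of 2 gave 141, a floor of 3 gave 75 and median ratio scaling gave 107, of which 98 were among the 99. The number of members called between ZT12 and ZT0, 1 as reported, was 3 with only the ZT0 and ZT12 libraries fitted, 11 with a pseudocount of 0.1, 4 with 0.5, 0 after median ratio scaling, 0 after quantile normalization, and 0 to 3 with each library left out. Over all mRNAs, limma called 2089 between ZT12 and ZT0, but 415 after median ratio scaling, 426 after quantile normalization, 863 with the replicate block and 319 to 2715 with a library left out; calls lower and higher were 1943 and 146, against 211 and 204 after median ratio scaling and 192 and 234 after quantile normalization. The median rise of the members from ZT12 was 3.87 after median ratio scaling, 6.33 with a pseudocount of 0.1, 4.63 with 0.5 and 3.74 to 3.82 with a library left out. From ZT0 it was 3.77, 6.04 and 4.48 under these settings, 3.79 after quantile normalization and 3.65 to 3.75 with a library left out. The rule fixed the direction of this rise, and its size depends on the pseudocount by construction.

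Replicate numbers did not pair the hens: the correlations of their deviations ran from -0.187 to 0.0784, with 0 of 9 over 0.1. With the replicate number as a block, 0 members were called between ZT12 and ZT0 (ENSGALG00000009686 at an adjusted p of 0.0613), and the medians stayed at 3.82 and 3.71.

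Settings for the neighbouring genes were chosen after seeing the data. They gave 11 to 14 neighbours that rose and 3 to 5 that fell. With a pseudocount of 0.1, RRAD passed the fold threshold (1.64). After quantile normalization DNM1 fell short of it (0.95). The promoter motif comparison and its alternative were not run, since no promoter sequence was used here. Without read counts per mRNA, counting error at values below 1 TPM cannot be given.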
